A study of Mus musculus with 8 samples.

Results

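The genes described here are the inhibitors of the cell cycle, the p53 axis and their target at the G1 step, Rb1 and Ccnd1, in hair follicle stem cells (HFSCs) and epidermal stem cells (EpdSCs) of Msx2-KO and WT mouse skin. They were chosen by symbol alone: Cdkn1a, Cdkn1b, Cdkn1c, Cdkn2a, Cdkn2b, Cdkn2c, Trp53, Mdm2, Rb1 and Ccnd1, 10 genes of the 24755 in the series. Of these, 9 were among the 23861 genes measured in HFSCs and 8 among the 16231 measured in EpdSCs. Cdkn2a was not analysed here in either cell type, nor Cdkn1c in EpdSCs.

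The data were bulk RNA-seq of cells sorted from dorsal skin in telogen, the resting phase of the hair cycle, with 2 libraries for each genotype and cell type, 8 in all. HFSCs were gated as CD34+CD49f+Sca-1- and EpdSCs as CD34-CD49f+Sca-1+. WT mice were C57BL/6J matched for hair cycle, aged 2 months for HFSCs and 6 months for EpdSCs. Msx2-KO mice, aged 6 months for both cell types, were homozygous for an allele with a pMC1-neo cassette inserted upstream of exon 2 of Msx2, a homeobox transcription factor, in every cell. No group received a treatment. In HFSCs age and genotype cannot be told apart. The labels do not say whether the libraries of a group came from separate animals, so p-values measure the spread between these samples only.

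Depth, in estimated counts, was 3132974 to 4324511 in WT HFSCs, 6895606 to 11016659 in Msx2-KO HFSCs, 15213639 to 15479551 in WT EpdSCs and 19392603 to 21092686 in Msx2-KO EpdSCs. The share of mitochondrial ribosomal RNA was 8.94% and 36.3% in WT HFSCs, 49.4% and 53.2% in Msx2-KO HFSCs, 23.5% and 16.4% in WT EpdSCs, and 0.0730% and 6.18% in Msx2-KO EpdSCs. Across genes, the Msx2-KO replicates correlated at 0.581 in HFSCs and 0.844 in EpdSCs, and the WT replicates at 0.929 and 0.952. The style of the column names also differed by genotype in HFSCs, and in EpdSCs only the numbers in the names lay apart by genotype. What either marks cannot be told apart from genotype. Msx2 itself did not separate the genotypes, with normalized counts of 39.8 and 12.7 in WT against 24.5 and 21.5 in Msx2-KO HFSCs, and values of 58.5 and 85.4 against 150.3 and 22.2 in EpdSCs. Counts per gene do not distinguish the exons around the cassette. The Msx2-KO libraries are therefore named by their label, written KO below, and each direction rests on that label. The marker of the HFSC gate, Cd34, had normalized counts of 2762 and 2455 in WT against 997 and 809 in KO HFSCs, and Ly6a, the gene of Sca-1, had values of 472 and 544 in WT against 826 and 3493 in KO EpdSCs.

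Progress from G1 into S phase depends on kinases that D-type and E-type cyclins activate and that inhibitors of the CIP/KIP and INK4 families block. When the kinases are blocked, the retinoblastoma protein holds E2F factors back and their S phase genes stay silent. p53, the product of Trp53, switches on Cdkn1a after damage or stress and also Mdm2, whose product marks p53 for degradation. HFSCs are quiescent for most of the hair cycle, while basal epidermal cells divide throughout life.

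The upstream sequences of 4 genes are shown because Trp53, Mdm2 and Cdkn2b were the members whose KO libraries lay on opposite sides of WT in the 2 cell types, and because Cdkn1a is the textbook p53 target. Each is the 250 bases before a transcription start, read 5′ to 3′ on the strand of the gene, from RefSeq on GRCm38.p6. The windows are chr11:69580109-69580358 (plus strand) for Trp53, chr10:117710759-117711008 (minus strand) for Mdm2, chr4:89311033-89311282 (minus strand) for Cdkn2b and chr17:29090729-29090978 (plus strand) for the first start of Cdkn1a. Capitals mark matches, on either strand, to the TATA box TATAAA, the CCAAT box, the Sp1 site GGGCGG, the Msx homeodomain site TAATTG, the p53 response element or an E2F site, which was searched as TTTCGCGC, TTTGGCGC, TTTCCCGC and TTTGCCGC. The p53 element was searched as adjoining repeats of its consensus with at most 1 mismatch.
Trp53: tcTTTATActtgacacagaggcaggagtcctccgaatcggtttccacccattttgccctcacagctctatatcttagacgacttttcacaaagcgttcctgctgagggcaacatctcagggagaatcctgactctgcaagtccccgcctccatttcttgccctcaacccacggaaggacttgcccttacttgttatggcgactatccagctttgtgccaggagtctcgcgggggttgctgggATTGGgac
Mdm2: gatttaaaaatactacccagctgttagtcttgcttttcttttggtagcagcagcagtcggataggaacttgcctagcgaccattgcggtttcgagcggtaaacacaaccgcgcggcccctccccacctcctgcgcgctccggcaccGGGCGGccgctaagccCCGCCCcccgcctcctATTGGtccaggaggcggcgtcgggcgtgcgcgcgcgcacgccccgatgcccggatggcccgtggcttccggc
Cdkn2b: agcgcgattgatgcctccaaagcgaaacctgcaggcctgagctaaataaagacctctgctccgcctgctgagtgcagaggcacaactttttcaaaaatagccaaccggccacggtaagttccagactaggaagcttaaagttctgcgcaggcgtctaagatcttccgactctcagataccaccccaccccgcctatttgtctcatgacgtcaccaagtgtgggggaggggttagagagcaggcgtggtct
Cdkn1a: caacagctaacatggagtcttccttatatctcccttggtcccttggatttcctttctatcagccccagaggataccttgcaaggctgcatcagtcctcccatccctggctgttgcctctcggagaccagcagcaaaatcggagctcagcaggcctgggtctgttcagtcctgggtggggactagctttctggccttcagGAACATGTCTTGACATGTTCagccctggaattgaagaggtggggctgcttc

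The Cdkn1a window held 1 match to the p53 element, which was present in 0.0578% of the 32851 mouse windows of this length. The Trp53 window held 1 match to the TATA box letters, at its end far from the transcription start, and 1 to the CCAAT box. The Mdm2 window held 2 matches to the Sp1 site and 1 to the CCAAT box. Over all windows the TATA box occurred in 12.4%, the CCAAT box in 33.8% and the Sp1 site in 32.7%. No searched motif matched in the Cdkn2b window. RefSeq windows were matched for 7 of the 10 genes (10 windows), and none for Cdkn1c, Rb1 or Ccnd1. An E2F site, present in 1.86% of all windows, occurred in 1 of them, the first Cdkn2a window, and the Msx site, present in 7.17% of all windows, in 0 of them. A match or its absence describes these letters only.

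HFSC values below are estimated counts scaled by edgeR's TMM factors to a common depth, called normalized counts, and were tested with edgeR's quasi-likelihood test. EpdSC values are on the authors' own normalized scale and were tested with limma on log2(value + 1), which understates changes of low genes. To be called, a gene needed an adjusted p (Benjamini-Hochberg) below 0.05 together with a fold change above 2. Changes are given as log2 fold change of KO over WT ± its standard error (SE). In HFSCs 8 members passed the filter on low counts and 0 were called, where edgeR called 0% of 14422 genes in either direction. At an unadjusted p under 0.05, 0 members stood against 18.1% of all genes. DESeq2, which called 822 of 23227 genes, and limma-trend, which called 1407 of 14422, also called 0 members. In EpdSCs 8 members were tested and 0 called, where limma called 1.57% of 16231 genes as higher and 7.78% as lower in KO. At an unadjusted p under 0.05, 2 EpdSC members, Cdkn2c and Trp53, stood against 35.3% of all genes. On counts recovered from the values, edgeR called 0 members and 0 of 15258 genes. DESeq2 on these counts called 2 of 8 members, again Cdkn2c and Trp53, beside 4364 of 16231 genes.

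The position of the libraries can be read without a test. In HFSCs both KO libraries lay above both WT libraries for 2 of the 8 tested members, Cdkn1c and Mdm2, against 17.5% of all genes. They lay below for 2, Cdkn1b and Trp53, against 33.5% of all genes. In EpdSCs they lay above for Cdkn2c, Trp53 and Ccnd1, 3 of 8 against 27.8% of all genes, and below for Cdkn1a, Cdkn1b, Cdkn2b and Mdm2, 4 of 8 against 44.5%. The shares of members that did not overlap, 4 of 8 and 7 of 8, stood beside 51.1% and 72.3% over all genes. Only Cdkn1b lay on the same side, below WT, in both cell types. With equal library totals the groups of Cdkn1c and Mdm2 overlapped in HFSCs and those of Mdm2 in EpdSCs. The median log2 fold change of KO over WT was -0.14 over all HFSC genes tested and -0.64 over all EpdSC genes.

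**Figure D1:**
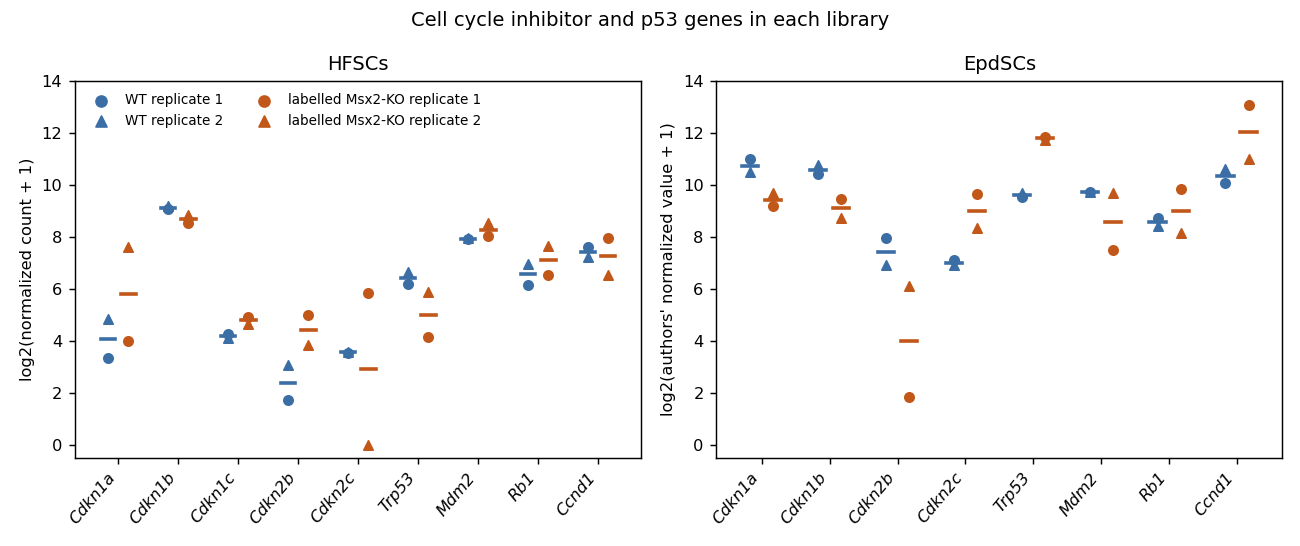
Values of each gene in each library, on the log2 scale after adding 1, as normalized counts in HFSCs (left) and the authors' normalized values in EpdSCs (right). Blue is WT and orange is labelled Msx2-KO, circles are replicate 1, triangles replicate 2 and short lines the mean of 2 libraries. Trp53 lies below WT in the KO HFSCs and above WT in the KO EpdSCs, and the KO replicates of Cdkn1a and Cdkn2c in HFSCs and of Cdkn2b in EpdSCs lie far from each other.

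The CIP/KIP inhibitors bind and block most cyclin-kinase complexes. Cdkn1a encodes p21, on chromosome 17 from 29090976 to 29100727 of GRCm38. Its normalized counts in HFSCs were 9.01 and 27.3 in WT against 14.7 and 192 in KO. The genotypes overlapped, and 1 KO library, replicate 2, stood above the other 3. The log2 fold change was 2.52 ± 1.57 (SE, edgeR adjusted p = 0.558). Without KO replicate 1 it was 3.55, and without KO replicate 2 it was -0.20. In EpdSCs Cdkn1a had values of 2022 and 1449 in WT against 579 and 820 in KO. Both KO libraries lay below both WT libraries, with a log2 fold change of -1.31 ± 0.52 (SE, limma adjusted p = 0.168). A gene of uncertain status overlaps 273 exon bases of Cdkn1a on the opposite strand, and strand use in counting is not given in the sources used here.

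Cdkn1b encodes p27, a brake that accumulates in resting cells, on chromosome 6 from 134920401 to 134925513. In HFSCs it had normalized counts of 530 and 582 in WT against 369 and 456 in KO. The groups did not overlap, and the log2 fold change was -0.43 ± 0.25 (SE, edgeR adjusted p = 0.511). In EpdSCs its values were 1372 and 1728 in WT against 707 and 423 in KO. Again both KO libraries lay below WT, at a log2 fold change of -1.49 ± 0.54 (SE, limma adjusted p = 0.150). Without KO replicate 1 this was -1.86 and without KO replicate 2 it was -1.12.

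Cdkn1c encodes p57, the imprinted member of the family, on chromosome 7 from 143458339 to 143461050. Its normalized counts in HFSCs were 17.9 and 16.4 in WT against 29.4 and 23.9 in KO, and the groups did not overlap. The log2 fold change was 0.63 with a standard error of 1.10 (adjusted p = 0.891 from edgeR), and under library totals it was -0.22. An antisense gene covers 625 of its exon bases.

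The INK4 inhibitors block CDK4 and CDK6 alone. Cdkn2b encodes p15, a target of TGF-β signalling, on chromosome 4 from 89306299 to 89311039, beside Cdkn2a, which encodes p16 and ARF. In HFSCs Cdkn2b had 3 and 4 estimated counts in WT against 50 and 11 in KO, too few to pass the filter and be tested. These correspond to normalized counts of 2.25 and 7.28 in WT against 30.6 and 13.1 in KO, with both KO libraries above WT. The 95% Poisson intervals cover counting error only. In normalized counts they ran from 1.98 to 18.6 for WT replicate 2 and 6.56 to 23.5 for KO replicate 2, and overlapped. That of KO replicate 1, 22.7 to 40.4, lay above those of both WT libraries (0.465 to 6.59 for WT replicate 1). With no filter on low counts the log2 fold change was 2.18 (adjusted p = 0.453 from edgeR), and without KO replicate 2 it was 2.88. In EpdSCs Cdkn2b had values of 246 and 119 in WT against 2.55 and 68.7 in KO. Here both KO libraries lay below WT, and KO replicate 1, at 2 counts, was 0.0140 of the WT mean (95% Poisson interval 0.00169 to 0.0505). The log2 fold change was -3.45 with a standard error of 1.67 (adjusted p = 0.217 from limma). Without KO replicate 2 it was -5.60, and without KO replicate 1 it was -1.30.

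Cdkn2c encodes p18, on chromosome 4 from 109660876 to 109667189. Its normalized counts in HFSCs were 10.5 and 10.9 in WT, 56.4 in KO replicate 1 and 0 in KO replicate 2, where 3 counts would have been 3.58. The KO libraries lay on either side of WT, and the log2 fold change of 1.39 had a standard error of 2.38 (adjusted p = 0.886 from edgeR). It was 2.39 without KO replicate 2 and -6.30 without KO replicate 1. In EpdSCs Cdkn2c had values of 136 and 119 in WT against 792 and 326 in KO, both above WT. The log2 fold change was 1.99 ± 0.66 (SE, limma adjusted p = 0.128). Without KO replicate 1 it was 1.35 and without KO replicate 2 it was 2.63.

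Trp53, on chromosome 11 from 69580359 to 69591873, encodes p53. Its normalized counts in HFSCs were 72.5 and 99.8 in WT against 16.5 and 57.3 in KO. Both KO libraries lay below WT and were 3.46-fold apart, so that the log2 fold change was -1.23 with a standard error of 0.99 (adjusted p = 0.675 from edgeR). Without KO replicate 2 it was -2.37, and without KO replicate 1 it was -0.60. In EpdSCs Trp53 had values of 741 and 816 in WT against 3667 and 3435 in KO. On the authors' scale the KO replicates were 1.07-fold apart, the closest of any member in EpdSCs. As scaled counts divided by exon length (CPM per kb, described below), Trp53 was at 36.8 and 59.9 in KO EpdSCs. Cdkn1b, at 6.31 and 6.55, had closer KO replicates than Trp53 on that scale. The log2 fold change of Trp53 was 2.19 ± 0.46 (SE, limma adjusted p = 0.0684). Trp53 passed with limma's intensity trend (adjusted p = 0.0365), with a pseudocount of 10 (0.0456) and with DESeq2 on recovered counts (0.00221). It did not pass with edgeR on recovered counts (0.0608), a pseudocount of 0.1 (0.0937) or equal library totals (0.105). Nor did it with mitochondrial and rRNA genes left out (0.124) or the replicate number as a block (0.153). Its log2 fold change ran from 1.65 to 2.26 over these settings, and from 2.12 to 2.26 with each library left out.

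Trp53 has a processed pseudogene, Trp53-ps, which could share its reads. Trp53-ps had normalized counts of 11.6 and 7.51 in WT against 0.613 and 0 in KO HFSCs, and values of 7.58 and 13.3 in WT against 30.6 and 92.4 in KO EpdSCs. Summed with Trp53 these gave 84.1 and 107 in WT against 17.2 and 57.3 in KO HFSCs, and 748 and 829 in WT against 3698 and 3528 in KO EpdSCs. The sides of the KO libraries were the same for the sum as for Trp53.

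Mdm2, the ubiquitin ligase of p53 and also a p53 target, lies on chromosome 10 from 117688875 to 117710758. Its normalized counts in HFSCs were 238.4 and 249.2 in WT against 261 and 368 in KO. Both KO libraries lay above WT by a small margin, and the log2 fold change was 0.37 ± 0.31 (SE, edgeR adjusted p = 0.702). Under library totals in place of TMM factors it was -0.50. In EpdSCs Mdm2 had values of 841 and 842 in WT against 178 and 822 in KO. KO replicate 2 was thus close to WT and KO replicate 1 far below it, at a log2 fold change of -1.13 ± 0.92 (SE, limma adjusted p = 0.405). Without KO replicate 2 it was -2.23, and without KO replicate 1 it was -0.034.

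Rb1 and Ccnd1 stand at the step that the inhibitors guard. Rb1, on chromosome 14 from 73183673 to 73325822, encodes the retinoblastoma protein, and its normalized counts in HFSCs were 70.6 and 124 in WT against 92.5 and 202 in KO. Its values in EpdSCs were 421 and 341 in WT against 921 and 279 in KO. The genotypes overlapped in both cell types, with log2 fold changes of 0.60 ± 0.65 (SE, edgeR adjusted p = 0.787) and 0.42 ± 0.78 (SE, limma adjusted p = 0.710). The HFSC value was -0.19 under library totals. The EpdSC value was -0.12 with mitochondrial and rRNA genes left out, 1.28 without KO replicate 2 and -0.44 without KO replicate 1. Rcbtb2 and Lpar6 overlap 488 and 408 exon bases of Rb1 on the opposite strand.

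Ccnd1 encodes cyclin D1, the partner of CDK4 and CDK6, on chromosome 7 from 144929931 to 144939925. Its normalized counts in HFSCs were 192 and 150.3 in WT against 246 and 92.0 in KO, and its log2 fold change was -0.02 ± 0.61 (SE, edgeR adjusted p = 0.996). The KO libraries enclosed the WT libraries. In EpdSCs the values were 1077 and 1555 in WT against 8594 and 2018 in KO. Both KO libraries lay above WT but were 4.26-fold apart, at a log2 fold change of 1.69 ± 0.91 (SE, limma adjusted p = 0.249). Without KO replicate 2 it was 2.73, and without KO replicate 1 it was 0.64. The antisense neighbour LTO1 shares 1100 exon bases with Ccnd1.

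**Figure D2:**
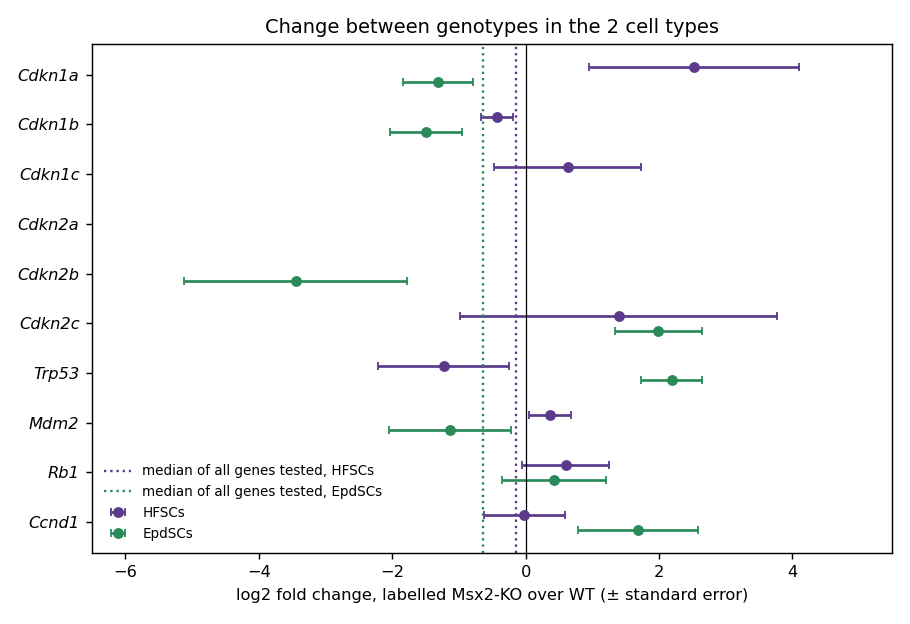
Log2 fold change of libraries labelled Msx2-KO over WT for each gene in HFSCs (purple) and EpdSCs (green), with bars of 1 standard error from edgeR and limma, and dotted lines at the median of all genes tested. Trp53 lies at -1.23 in HFSCs and 2.19 in EpdSCs. Cdkn2a in either cell type, Cdkn2b in HFSCs and Cdkn1c in EpdSCs have no point because no test was made.

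CPM per kb is the counts of a gene, scaled to a total for its library and divided by its exon length. The total is that over the 15337 genes measured in both cell types. CPM per kb allows levels to be set side by side across genes and, with less certainty, across the 2 tables, which the authors made separately. They are given as descriptions without a test. In WT HFSCs the order ran from Cdkn1b at 29.9 CPM per kb (range of 2 libraries 22.8 to 36.9) and Mdm2 at 11.8 (8.75 to 14.9) through Ccnd1 at 9.32 (5.69 to 12.9), Trp53 at 5.04 (4.402 to 5.68), Rb1 at 3.70 (3.68 to 3.72), Cdkn1c at 2.11 (1.43 to 2.79), Cdkn1a at 1.09 (0.804 to 1.37) and Cdkn2c at 0.983 (0.725 to 1.24) to Cdkn2b at 0.724 (0.514 to 0.934). The ranges of Mdm2 and Ccnd1 overlapped, as did those of Cdkn1a, Cdkn2c and Cdkn2b, so that their order is not resolved. In WT EpdSCs Cdkn1a stood first at 31.2 (27.8 to 34.6), followed by Cdkn1b at 22.1 (18.3 to 25.9) and Ccnd1 at 18.2 (13.9 to 22.5), whose ranges overlapped. Trp53 at 12.4 (11.1 to 13.8), Mdm2 at 10.7 (10.05 to 11.3) and Cdkn2b at 8.28 (5.82 to 10.8) came next, each overlapping its neighbour, before Rb1 at 4.06 (3.86 to 4.26) and Cdkn2c at 3.05 (3.01 to 3.09).

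The order was looser in the KO libraries. In KO HFSCs Cdkn1b stood first at 12.2 CPM per kb (12.1 to 12.3), followed by Mdm2 at 8.26 (7.65 to 8.86) and Ccnd1 at 5.09 (2.39 to 7.80). Cdkn1a at 3.62 (0.617 to 6.63), Rb1 at 3.20, Cdkn2b at 2.22, Cdkn1c at 1.79, Cdkn2c at 1.56 (0 to 3.13) and Trp53 at 1.17 (0.609 to 1.74) each overlapped its neighbour, as did Mdm2 and Ccnd1. In KO EpdSCs Ccnd1 at 52.2 (30.2 to 74.2) and Trp53 at 48.4 (36.8 to 59.9) led and overlapped. Cdkn1a at 11.5 (6.63 to 16.3) and Cdkn2c at 10.3 (8.57 to 12.0) overlapped next. Cdkn1b at 6.43 (6.31 to 6.55), Mdm2 at 6.42 (1.43 to 11.4), Rb1 at 4.75 (3.27 to 6.22) and Cdkn2b at 1.78 (0.0745 to 3.49) followed, each overlapping its neighbour. Trp53 thus stood last of 9 genes by mean level in KO HFSCs and second of 8 in KO EpdSCs. Mitochondrial and rRNA genes made up 57.02% and 62.5% of the counts in KO HFSCs, against 11.2% and 41.4% in WT. Comparing WT with KO HFSC levels therefore depends on the total used. With those genes left out of the totals, Mdm2 was at 15.9 in WT and 20.9 in KO HFSCs, and Rb1 at 5.27 and 8.24. These means and those of Cdkn1c and Ccnd1 were then higher in KO, not lower. Cdkn1b and Trp53 stayed lower, and Cdkn1a, Cdkn2b and Cdkn2c stayed higher.

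Between the cell types, the WT EpdSC libraries lay above the WT HFSC libraries for 6 of the 8 genes measured in both and overlapped for Cdkn1b and Mdm2. The sides were not counted over all 15337 genes measured in both, so no share over all genes stands beside these counts or fold differences. With mitochondrial and rRNA genes left out of the totals they lay above for 5, and the WT EpdSC libraries lay below the WT HFSC libraries for Cdkn1b (40.5 CPM per kb in HFSCs against 28.6 in EpdSCs) and Mdm2 (15.9 against 13.9). Cdkn1a differed most, 28.7-fold in CPM per kb (25.02-fold with mitochondrial and rRNA genes left out of the totals). Cdkn2b followed at 11.4-fold, while Rb1 was at 1.10-fold and overlapped with those genes left out. WT HFSC and EpdSC mice differed in age. Among the KO libraries Trp53 was 41.3-fold higher in EpdSCs, 1.17 against 48.4 CPM per kb, and 17.2-fold with mitochondrial and rRNA genes left out. Ccnd1 was 10.2-fold higher in KO EpdSCs than in KO HFSCs, 5.09 against 52.2, and 4.51-fold with those genes left out. Cdkn1b had both KO EpdSC libraries below both KO HFSC libraries, at 12.2 CPM per kb in HFSCs against 6.43 in EpdSCs, a ratio of 0.528 (0.226 with those genes left out). Mdm2, at 8.26 against 6.42, and Cdkn2b, at 2.22 against 1.78, had lower means in KO EpdSCs but overlapped, and with those genes left out Mdm2 no longer did, at 20.9 against 7.06. In these bulk samples, fewer cells with a transcript and less of it per cell cannot be told apart.

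**Figure D3:**
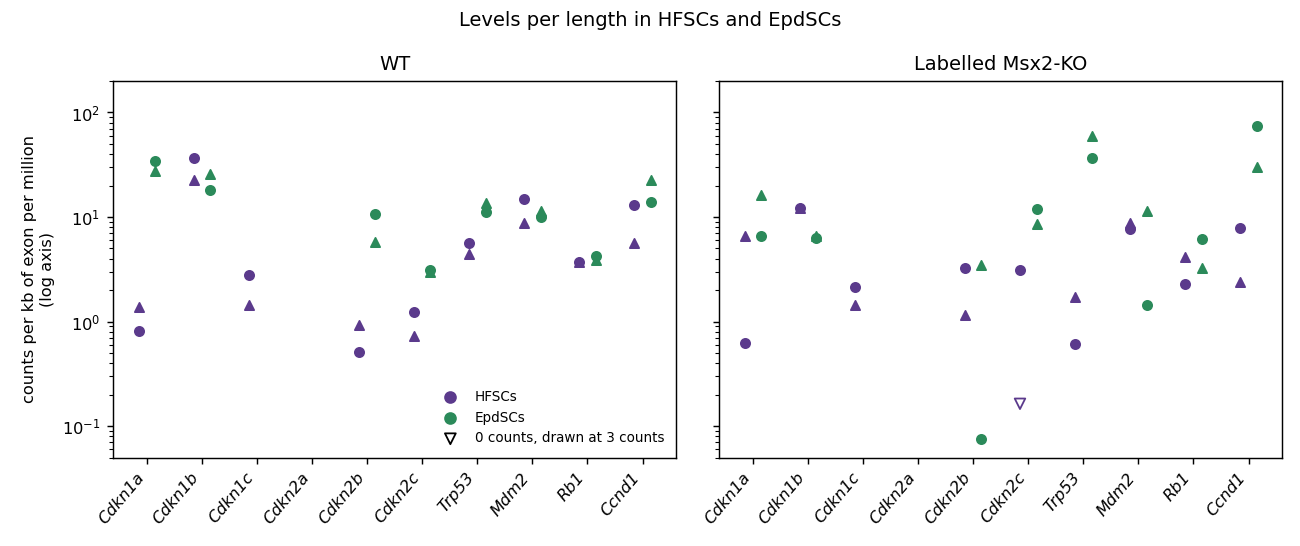
CPM per kb of exon on a log axis for each library of HFSCs (purple) and EpdSCs (green), in WT (left) and libraries labelled Msx2-KO (right); circles are replicate 1 and triangles replicate 2. Cdkn1a differs most between the cell types in WT and Trp53 in KO, and the open triangle is the KO HFSC library with 0 counts of Cdkn2c, drawn at the level of 3 counts.

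Ratios of 2 members within a library need no scaling between libraries. The ratios were chosen after the values had been seen and are descriptions. In HFSCs Mdm2 per kb was 2.62 and 1.99 times Trp53 in WT and 12.6 and 5.11 times in KO. In EpdSCs it was 0.903 and 0.822 in WT against 0.0387 and 0.190 in KO. The KO libraries thus lay above WT in HFSCs and below WT in EpdSCs, without overlap in either. Cdkn1a over Trp53 had the same arrangement, with 0.142 and 0.311 in WT against 1.01 and 3.82 in KO HFSCs, and 3.11 and 2.02 in WT against 0.180 and 0.272 in KO EpdSCs. Both ratios share Trp53 and are not separate observations. Ccnd1 over Cdkn1b, an activator over an inhibitor of the same kinases, was 0.759 and 0.870 in WT against 11.8 and 4.62 in KO EpdSCs, and overlapped in HFSCs, with 0.351 and 0.250 in WT against 0.646 and 0.195 in KO. Cdkn1a over Cdkn1b overlapped in both cell types. With 2 libraries against 2, an exact permutation test cannot give a two-sided p below 0.333.

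**Figure D4:**
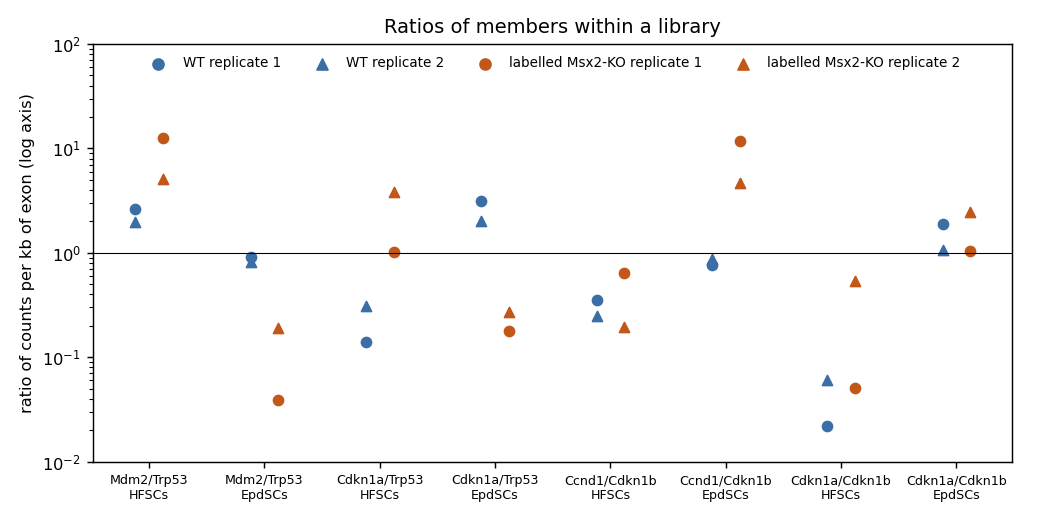
Ratios of counts per kb of exon between members in each library, on a log axis, for WT (blue) and libraries labelled Msx2-KO (orange), circles being replicate 1 and triangles replicate 2. Mdm2 over Trp53 and Cdkn1a over Trp53 lie above WT in KO HFSCs and below WT in KO EpdSCs.

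The neighbours of these genes were read in lists that hold no member. Over all genes, both KO libraries lay above WT for 17.5% and below for 33.5% in HFSCs. The shares in EpdSCs were 27.8% and 44.5%. At an unadjusted p under 0.05 stood 18.1% of all genes in HFSCs (edgeR) and 35.3% in EpdSCs (limma). These shares stand beside the counts of every list below. For the partners of the inhibitors in G1, edgeR called 0 of 14 genes tested in HFSCs, with 2 at an unadjusted p under 0.05, and both KO libraries lay above WT for 5 and below for 4. Their median log2 fold change was 0.29. The highest were Cks1b, a subunit that helps the SCF ligase destroy p27, with normalized counts of 3.005 and 9.09 in WT against 77.2 and 60.9 in KO (log2 fold change 3.53, adjusted p = 0.260), and Cdk4, with 86.6 and 100.3 in WT against 143 and 398 in KO. In EpdSCs limma called 0 of 16, with 6 at an unadjusted p under 0.05, and both KO libraries lay above WT for 9 and below for 0, where all genes had 27.8% and 44.5%. The median was 0.84. Cdkn2d, the INK4 inhibitor p19, had values of 95.3 and 75.9 in WT against 2273 and 672 in KO (log2 fold change 3.85, adjusted p = 0.0663), and Cks1b had 53.1 and 40.8 in WT against 456 and 181 in KO.

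Of the pocket proteins and E2F factors, 0 of 15 were called in HFSCs by edgeR (1 unadjusted) and 0 of 16 in EpdSCs by limma (5 unadjusted), with medians of 0.25 and 0.71. Rbl2, the pocket protein p130 of resting cells, lay below WT in the KO libraries of both cell types. Its normalized counts were 424 and 309 in WT against 138 and 170 in KO HFSCs, and its values 950.3 and 1107 in WT against 370 and 379 in KO EpdSCs (log2 fold changes -1.26 and -1.45, adjusted p = 0.153 from edgeR and 0.124 from limma). E2f3 had normalized counts of 10.5 and 12.7 in WT against 70.5 and 66.9 in KO HFSCs. E2f1 had values of 83.4 and 93.0 in WT against 1405 and 286 in KO EpdSCs. None of these passed the test.

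Among 20 E2F target and S phase genes, edgeR called 0 of 19 tested in HFSCs (1 unadjusted), with a median of 1.203 and both KO libraries above WT for 8 and below for 2. Ccna2, cyclin A2, had normalized counts of 14.8 and 25.03 in WT against 217.6 and 71.7 in KO. In EpdSCs limma called 1 of 20, Cdk1, the mitotic kinase, which rose from 53.1 and 56.9 in WT to 1455 and 655 in KO (log2 fold change 4.13 ± 0.62, limma adjusted p = 0.0416). The median was 0.26, with both KO libraries above WT for 11 and below for 4. Mcm7, a subunit of the replicative helicase, had 656 and 747 in WT against 8059 and 4819 in KO, while Mcm5 of the same complex had 272 and 373 in WT against 2.55 and 177 in KO.

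Of the p53 regulators and family, edgeR called 0 of 18 in HFSCs (3 unadjusted), with a median of -0.31, 2 above WT and 6 below. Ppm1d, a phosphatase that opposes p53, had normalized counts of 75.1 and 83.7 in WT against 21.5 and 3.58 in KO, and Rpl11, a ribosomal protein that restrains MDM2, had 19.1 and 23.2 in WT against 210 and 86.7 in KO. In EpdSCs limma called 1 of 18, Chek2, a kinase that activates p53 after DNA breaks. Chek2 rose from 74.7 and 64.5 in WT to 1253 and 874.9 in KO (log2 fold change 3.90 ± 0.50, limma adjusted p = 0.0327). Atm, the kinase that activates Chek2, had values of 782 and 934 in WT against 11.5 and 71.4 in KO (log2 fold change -4.83, adjusted p = 0.0698), and Trp53bp1 had 1264 and 1300.4 in WT against 46.4 and 132 in KO (adjusted p = 0.0534). The median of the list was 0.12, with 7 above WT and 8 below.

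Among the p53 targets, edgeR called 0 of 31 in HFSCs (3 unadjusted), with a median of -0.41, 4 above WT and 9 below. Limma called 0 of 33 in EpdSCs (8 unadjusted), with a median of 0.49, 16 above WT and 7 below. Over all EpdSC genes 27.8% lay above and 44.5% below, with 35.3% at an unadjusted p under 0.05 from limma. Psrc1 lay above WT in the KO libraries of both cell types, with normalized counts of 27.8 and 9.09 in WT against 127 and 116 in KO HFSCs and values of 72.6 and 84.4 in WT against 1108 and 351 in KO EpdSCs. Btg2, an antiproliferative gene, had normalized counts of 259 and 2415 in WT against 85.2 and 147 in KO HFSCs, and its WT libraries were far apart. In EpdSCs Ccng1, cyclin G1, had values of 634 and 686 in WT against 4850 and 3460 in KO (log2 fold change 2.63, adjusted p = 0.0583). Sfn, which encodes 14-3-3σ, had 18143 and 14053 in WT against 73.9 and 2717 in KO (log2 fold change -5.15, adjusted p = 0.157). The list thus held genes far on either side of WT in both cell types.

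Of 20 senescence secretory genes only 3 could be tested in HFSCs, with 0 called by edgeR (0 unadjusted) and a median of 0.48, 0 above WT and 1 below. Igfbp3 had normalized counts of 216 and 151 in WT against 0 and 123 in KO. In EpdSCs limma called 0 of 10 (5 unadjusted), with a median of 1.12, 5 above WT and 2 below. Mmp3 had values of 39.0 and 10.4 in WT against 160.4 and 380 in KO, and Igfbp3 2177 and 4530 in WT against 16254 and 13041 in KO. Vegfa lay on the other side, with 375 and 513 in WT against 162 and 150.3 in KO.

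**Figure D5:**
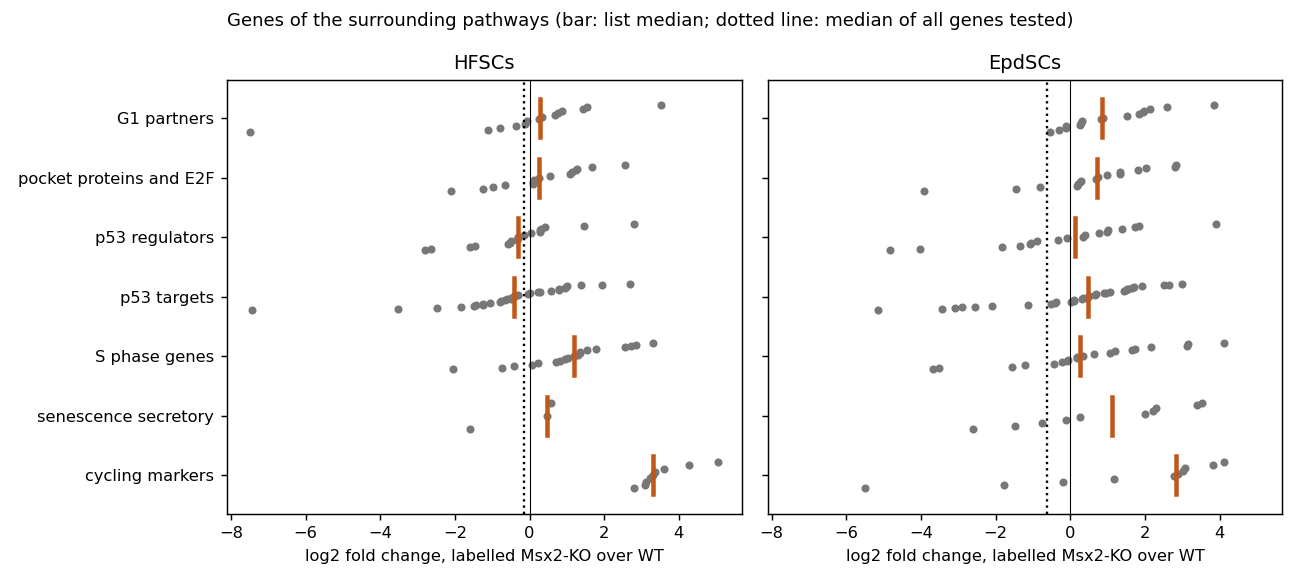
Log2 fold change of libraries labelled Msx2-KO over WT for each gene tested of 7 lists around the cell cycle and p53, in HFSCs (left) and EpdSCs (right); grey points are genes, orange bars list medians and dotted lines the median of all genes tested. The cycling cell markers have medians of 3.30 and 2.82, and in EpdSCs every list, the cycling cell markers included, holds genes on both sides of 0.

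Scaling HFSC counts by library totals moved the median of all genes to -1.002 and the medians of the 6 lists to -0.56, -0.59, 0.37, -1.19, -1.23 and -0.36, in the order given above. In EpdSCs equal library totals gave medians of 0.58, 0.44, -0.01, -0.14, 0.22 and 0.92. Leaving out mitochondrial and rRNA genes there gave 0.31, 0.18, -0.28, -0.41, -0.05 and 0.68, with a median of -1.14 over all EpdSC genes. The p53 target median in EpdSCs thus changed sign between settings, as did those of the S phase genes and p53 regulators. The median of all EpdSC genes moved down as well, from -0.64 to -0.88 with equal library totals. In each of these settings the medians of these lists stayed above that of all genes.

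The tools differed in these calls. In HFSCs DESeq2 called Btg2 of the p53 targets and limma-trend called Ccne2 of the G1 partners, and neither called another gene of the 6 pathway lists. In EpdSCs edgeR on recovered counts called 0 genes of the 6 lists, with 5, 5, 8, 8, 7 and 2 at an unadjusted p under 0.05 for the G1 partners, pocket proteins and E2F factors, p53 regulators, p53 targets, S phase genes and secretory genes. DESeq2 on the same counts called 5, 4, 5, 7, 4 and 2 genes of these lists, beside 4364 of all 16231 genes. Chek2 and Cdk1 were called by limma and DESeq2 but not by edgeR, and without either WT library limma called 0 genes.

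Markers of other cell states moved with genotype beside these genes. The shares of all genes above and below WT were 17.5% and 33.5% in HFSCs and 27.8% and 44.5% in EpdSCs. Of 9 cycling cell markers tested in HFSCs, both KO libraries lay above WT for 6, with summed normalized counts of 307 to 364 in WT and 2945 to 3460 in KO. Mki67 had 143 and 220 in WT against 2361 and 1330 in KO HFSCs. In EpdSCs 7 of 10 lay above and 2 below, and Ccnb2, Aurkb and Cdk1 were called as higher by limma. With equal library totals, or with mitochondrial and rRNA genes left out, limma called only Cdk1 of these. With a pseudocount of 0.1 or the replicate block it called none of them. There Mki67 had values of 2517 and 2055 in WT against 7.64 and 294 in KO, opposite in side to Ccnb2. Suprabasal markers lay above WT in KO HFSCs for 6 of 8 (sums of 2401 to 2460 in WT and 5327 to 18603 in KO) and below in KO EpdSCs for 6 of 10 (216715 to 300008 against 82118 to 107436). Sebaceous gland markers lay above WT in KO HFSCs for 8 of 8 (sums of 468 to 565 against 6584 to 8601), and 8 of 12 HFSC markers lay below (45628 to 46245 against 25108 to 26686). Interfollicular basal markers lay below WT in KO HFSCs for 6 of 9 and above for 2 (sums of 47101 to 48191 against 29165 to 30430). In EpdSCs basal markers lay above for 6 of 10 and below for 2 (253577 to 301528 against 598134 to 1095570), and HFSC markers above for 4 of 10 and below for 1 (96926 to 117661 against 220883 to 312193). Immune marker sums were 33.1 to 75.3 in WT and 58.5 to 113 in KO HFSCs, with Ptprc, which encodes CD45, at 0 in both KO libraries, and 70.9 to 828 in WT and 9.54 to 20.2 in KO EpdSCs, with Ptprc at 94.2 in 1 WT library and 0 in the other 3. Fibroblast, endothelial and mural, and melanocyte marker sums in HFSCs were 300.4 to 373, 1976 to 2030 and 1107 to 1233 in WT and 80.0 to 159, 758 to 974 and 299 to 662 in KO. Median change also differed with transcript length. Protein-coding genes under 2 kb of exon had a median log2 fold change of 0.53 in HFSCs and -0.34 in EpdSCs, and those over 8 kb -0.29 and -0.60. The part that these markers, transcript length, the mitochondrial share and the number of genes above 0 had in the members' values was not tested.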

How the data were processed

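Libraries of total RNA were stranded. The authors aligned their reads to GRCm38/mm10 with STAR 2.7.3a in Partek Flow and counted GENCODE genes. Whether strand was used is not given in the sources used here. For HFSCs the authors deposited estimated counts, not normalized. For EpdSCs they deposited a normalized signal, estimated counts divided by a factor for each library. A filter had removed low genes, by a rule not given there. The value of 1 count was 1.08 and 0.948 in WT against 1.27 and 0.674 in KO, which gave recovered counts for the edgeR and DESeq2 alternatives, although only 73.0% to 82.6% of values under 500 counts were whole within 0.02. Tables of the authors' own comparisons, with their p-values, log2 ratios, ratios and fold-change scores, were deposited too and not used here.

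HFSC counts were rounded and tested with edgeR 4.0.16 (TMM, quasi-likelihood, default filter on low counts). For EpdSCs, limma 3.58.1 was fitted to log2(value + 1) with a common prior spread. The p-values were adjusted over all genes of a table by Benjamini-Hochberg. Standard errors were the fold change over the root of F or limma's own. R 4.3.3, DESeq2 1.42.0, Python 3.11.15 and pandas 2.3.3 were used, with exon lengths from GENCODE M21. The tests were checked on simulated data only. Their spread between replicates was set below that of the HFSC counts (common dispersion 0.823), so the check does not cover that spread. The members and gene lists were chosen with earlier results of these data known. Named genes were the members, Msx2, defining markers and, of each list, at most the 2 highest and 2 lowest fold changes among genes whose groups did not overlap and whose mean was at least 20. Trp53-ps, Ccne2, Rcbtb2, Lpar6 and LTO1 were named after their values were seen. Alternatives changed the tool, scaling, low-count filter, pseudocount, block and threshold, left out mitochondrial and rRNA genes, or left out each library.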

Additional observations from a re-analysis of the deposited data

Results flagged for a closer look

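Trp53, Cdkn2b and Mdm2 drew attention because both KO libraries lay on one side of WT in HFSCs and on the other side in EpdSCs. As the log2 difference of the group means, with 1 added, Trp53 was at -1.20 in HFSCs and 2.19 in EpdSCs. Cdkn2b was at 1.99 in HFSCs and -2.32 in EpdSCs. Mdm2 was at 0.37 in HFSCs and -0.75 in EpdSCs, but with equal library totals its groups overlapped in both cell types and the HFSC value was -0.49. The difference between the cell types was not tested, since the tables were normalized separately and the WT HFSC mice were younger.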

How the results depend on the processing

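The HFSC count of called genes was 0 with edgeR (2614 unadjusted), 822 with DESeq2, 1407 with limma-trend, 51 with library totals, 2 with at least 10 counts in every library, 231 with the replicate number as a block, and 132 to 9272 with each library left out. HFSC member calls ran from 0 to 3 with each library left out. The EpdSC count was 1518 with limma, 0 with edgeR on recovered counts, 4364 with DESeq2 on them (added after seeing the data), and 0 to 10376 with each library left out. EpdSC member calls were 1 with a pseudocount of 10, 1 with limma-trend, 2 with DESeq2 on recovered counts, and 0 to 6 with each library left out. Where 1 library was left out, the lone library of its group was assumed to vary like the others. Same-numbered samples did not deviate together (correlations 0.0128 in HFSCs and -0.0525 in EpdSCs), and the block left 1271 EpdSC calls and 0 member calls in either cell type. Members with groups apart in HFSCs, with Cdkn2b, were 5 and with library totals 3 (compared after seeing the data). Median levels in CPM per kb with mitochondrial and rRNA genes left out were 6.13 in WT HFSCs, 8.15 in KO HFSCs and 15.2 in WT EpdSCs, against 4.37, 3.23 and 11.7.

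Log2 fold changes that changed sign in HFSCs were Cdkn2c at -0.077 with limma-trend, -1.02 with the block and -6.30 without KO replicate 1, and Cdkn1c at -0.22, Mdm2 at -0.50 and Rb1 at -0.19 with library totals, which moved the median of all genes from -0.14 to -1.002. Ccnd1 was at 0.055 with at least 10 counts in every library, 0.13 without WT replicate 1 and 0.51 without KO replicate 2, and without the latter Cdkn1a was at -0.20 and Rb1 at -0.045. In EpdSCs Rb1 was at -0.12 with mitochondrial and rRNA genes left out and -0.44 without KO replicate 1. With each library left out, these HFSC genes ran from -6.30 to 2.39 (Cdkn2c), -0.20 to 3.55 (Cdkn1a), -0.045 to 1.06 (Rb1) and -0.93 to 0.51 (Ccnd1), and EpdSC Rb1 from -0.44 to 1.28. Of 214 values of single members under an alternative, 185 kept direction and side of the threshold, 16 came to pass it and 13 changed sign. The values without a fold threshold came from the main fit, where no member passed the adjusted p threshold. They were therefore bound to count as kept. The causes of these changes were not tested. With 2 libraries in each group, and under 30 counts of some members in HFSC libraries, differences of these sizes were not resolved.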
